A study of Homo sapiens with 21 samples.

Results

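CD38 is one of 53 genes whose chromatin contacts were captured by Tri-C, a method that reads out which restriction fragments were ligated together with a chosen fragment, the viewpoint, so that contacts of 3 fragments at once can be counted. The locus was taken as every deposited count table that carries the name CD38, which gave 7 of the 371 tables and 1 of the 53 genes. The line used, BLaER1, is a human leukaemia of B cell origin that carries an inducible form of the transcription factor C/EBPα and converts into macrophage-like cells, called iMacs, in medium with 17β-estradiol, IL-3 and CSF-1. Enhancer viewpoint libraries were made at 0 h, where cells grew without these factors, and after 24 h and 96 h of conversion, and a further one at 96 h came from a subclone with the CTCF-AID degron that was treated with auxin from the start of conversion (the depleted library). CTCF-binding site (CBS) viewpoint libraries came from unmodified cells at 0 h, at 24 h and at 96 h. Each table pools 3 biological replicates, so there was 1 library per condition. It is a single line, and no untreated CTCF-AID library was analysed here, so subclone, auxin and loss of CTCF cannot be told apart. The study placed CD38 among 15 B cell loci, which stand beside 36 iMac loci. The remaining 2 genes of the 53 were left out of comparisons.

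CD38 encodes an ectoenzyme that consumes NAD+ and forms ADP-ribose and cyclic ADP-ribose, and it is widely used as a surface marker of lymphoid cells. Its neighbour BST1, also known as CD157, is its paralog and encodes a related enzyme held to the membrane by a lipid anchor. Enhancers are stretches of DNA that act on promoters from a distance, and CTCF is a DNA-binding protein that, by halting the cohesin complex, helps to set the limits within which they meet.

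The enhancer viewpoint is shown first, because every contact of the 4 enhancer libraries is a ligation to this fragment. It was placed from the stretch that the tables leave out around the viewpoint, and 1 NlaIII fragment on chromosome 4 (hg38) accounted for that stretch. With its flanking sites the fragment spans 298 bases, chr4:15401233-15401530, and has a GC content of 52.7%. It lies within the gene C1QTNF7 and 2 long non-coding RNA genes, C1QTNF7-AS1 and ENSG00000251379, and overlaps no annotated exon. The start of the canonical C1QTNF7 transcript is 26.49 kb away. Capitals mark the NlaIII sites at both ends, and the plus strand is printed.
CD38 enhancer viewpoint: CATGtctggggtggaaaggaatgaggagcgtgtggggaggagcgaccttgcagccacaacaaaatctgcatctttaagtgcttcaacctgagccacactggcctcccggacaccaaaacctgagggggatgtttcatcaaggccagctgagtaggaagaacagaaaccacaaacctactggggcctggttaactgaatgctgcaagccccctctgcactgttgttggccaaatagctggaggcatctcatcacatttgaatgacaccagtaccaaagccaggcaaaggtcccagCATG

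The CBS viewpoint was found in the same way and is shown because it is the second anchor from which the locus was read. Its fragment spans 171 bases, chr4:15730220-15730390, has a GC content of 34.5%, lies in the gene BST1 and overlaps no annotated exon.
CD38 CBS viewpoint: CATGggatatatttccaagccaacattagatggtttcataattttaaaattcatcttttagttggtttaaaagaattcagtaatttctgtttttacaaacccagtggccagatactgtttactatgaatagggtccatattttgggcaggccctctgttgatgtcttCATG

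CD38 (ENSG00000004468.13) is annotated on the plus strand at 15778275 to 15853232 of chromosome 4, with its canonical start at 15778328. The enhancer viewpoint lay 376.8 kb before this start, which was the 5th longest distance among the 51 loci compared and the 3rd longest among the 15 B cell loci, where the median was 111.1 kb. The CBS viewpoint lay 328.8 kb from the enhancer and 48.01 kb before the start of CD38. It thus stood between enhancer and promoter, an order found at 1 of the 51 loci, CD38 itself. Between enhancer and CD38 lie the starts of C1QTNF7, a gene of the C1q and TNF related secreted proteins, of CC2D2A, which encodes a protein of the ciliary transition zone, of FBXL5, which encodes an iron-sensing subunit of a ubiquitin ligase, and of FAM200B and BST1. Beyond CD38 lie FGFBP1 and FGFBP2, which encode fibroblast growth factor binding proteins, PROM1, which encodes the membrane glycoprotein CD133, and TAPT1. A search for the letters CCANNAGNNGGC, a core of the CTCF motif, covered both strands within 1 kb. It found 0 matches at the CBS viewpoint and 0 at the CD38 start. A match was found at 12 of the 51 CBS viewpoints (23.5%) and at 11.5% of 19031 protein-coding starts. Most CBS viewpoints thus had no match either, so its absence does not set CD38 apart.

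The number of three-way counts with both captured fragments (reporters) within 1 Mb of the viewpoint, called the total, was 26921, 30423, 31928 and 48997 in the enhancer libraries (0 h, 24 h, 96 h, depleted), and 42002, 45557 and 37497 in the CBS libraries (0 h, 24 h, 96 h). Among the 51 loci the enhancer libraries of CD38 ranked from 50th to 39th in depth. A read with several reporters gave a count for each pair of them, so counts are not independent. Intervals in brackets are at the 95% level and cover counting error only, and calls compare pooled libraries rather than conditions, since no spread between replicates could be measured. A count was called distant where the viewpoint and both reporters all lay over 10 kb apart, and a count was given to an element where a distant reporter lay in the 12 kb window centred on it. Changes are log2 ratios of the window's count to the remaining counts, and a change was called where an exact two-sided binomial test gave a Benjamini-Hochberg adjusted p under 0.05 over all loci, promoters or bins measured. Boundary crossing and the distant share, described further on, were compared by Fisher's exact test. Boundary crossing counts reporters, so both reporters of the same count can enter it. Its test treats them as independent, so its intervals and p-values are too narrow even for counting error.

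The first question was how often the far enhancer met the CD38 promoter together with another distant fragment (E-P-X), and whether this differed as B cells became iMacs. The CD38 window held 95 counts at 0 h and 108 at 24 h, then 99 at 96 h, while the depleted library gave 116. As shares of the total these were 0.353% [0.286, 0.431], 0.355% [0.291, 0.428], 0.310% [0.252, 0.377] and 0.237% [0.196, 0.284]. The 3 libraries of unmodified cells were close to each other and their intervals overlapped, and the depleted library was the lowest, with an interval that ended below that of the 0 h library. The contacts were spread over 80, 86, 71 and 95 different fragment pairs in the same order, and the highest count of 1 pair was 4, 7, 11 and 3.

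At 24 h the CD38 share differed from that at 0 h by a log2 ratio of 0.008 [-0.40, 0.42] (exact test, adjusted p = 1.0), in a comparison that called 80.4% of the 51 loci. At 96 h the difference was -0.19 [-0.61, 0.23] (exact test, adjusted p = 0.395), where 96.1% of the loci were called. Neither passed the test, and the interval at 96 h reached from -0.61 to 0.23. Of the 15 B cell loci, 13 fell at 24 h and 14 at 96 h, with medians of -0.73 and -0.75, and CD38 had the highest ratio of the 15 at both times. CD38 also had the lowest E-P-X share of the 15 at 0 h, and ranked 49th of the 51 loci. Its counts were thus low from the start, and the absence of a call does not show a stable contact. BCL11A, a B cell locus with a like distance of 453.3 kb, had -1.61 [-2.04, -1.20] at 96 h, an interval that did not overlap that of CD38, although the difference between loci was not tested. BCL11A started from a like level, 0.357% at 0 h, and stood at 0.117% at 96 h.

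**Figure D1:**
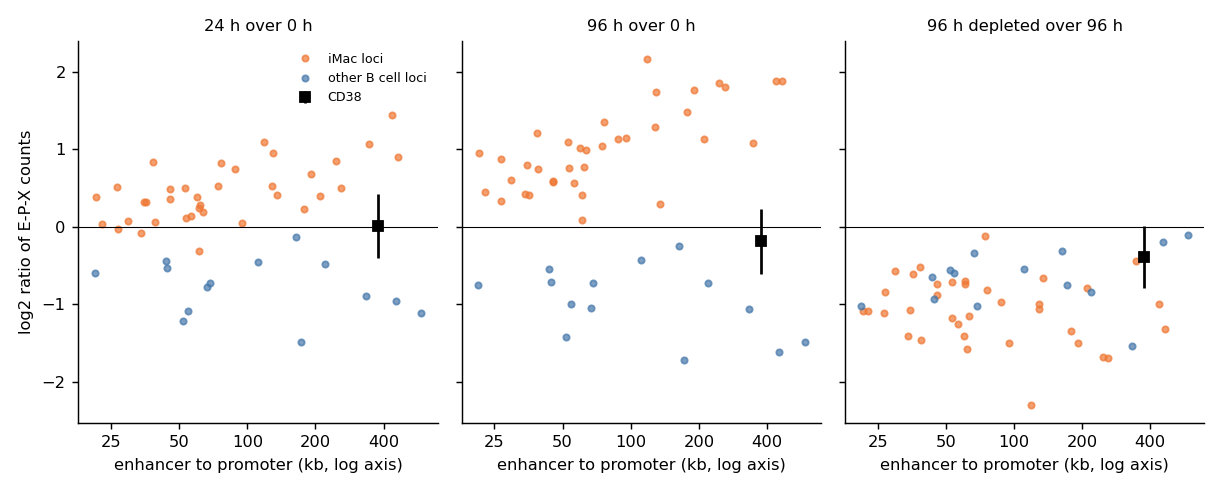
Change of E-P-X counts (vertical axis, log2 ratio of pooled libraries) against the distance from enhancer to promoter (horizontal axis, kb, log scale) for 51 loci in 3 comparisons. Orange points are iMac loci, blue points the other B cell loci, and the black square is CD38 with its 95% counting interval. CD38 lay at 0.008, -0.19 and -0.39, above the 14 other B cell loci in the first and second panels.

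The width of the window mattered at CD38. In windows of 7.5 kb the counts were 41 at 0 h, 70 at 24 h and 62 at 96 h, and the ratio became 0.59 [0.02, 1.19] at 24 h, which was called (exact test, adjusted p = 0.0442), and 0.35 [-0.24, 0.96] at 96 h, which was not (exact test, adjusted p = 0.241). With each fragment pair counted once, or with normalisation to distant counts, the ratio at 24 h was -0.11 or -0.05, with no call. Windows of 3 kb showed where the counts lay. In the 3 kb before the start the 4 libraries had 20, 36, 36 and 30 counts, or 74.3, 118, 113 and 61.2 per 100000 of the total. From 6 to 3 kb before the start there were 33, 24, 19 and 24 counts, or 123, 78.9, 59.5 and 49.0 per 100000. The window just before the start thus held more at 24 h and 96 h than at 0 h and the next one upstream held less, and the 12 kb window adds both together. None of these small windows was tested.

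**Figure D2:**
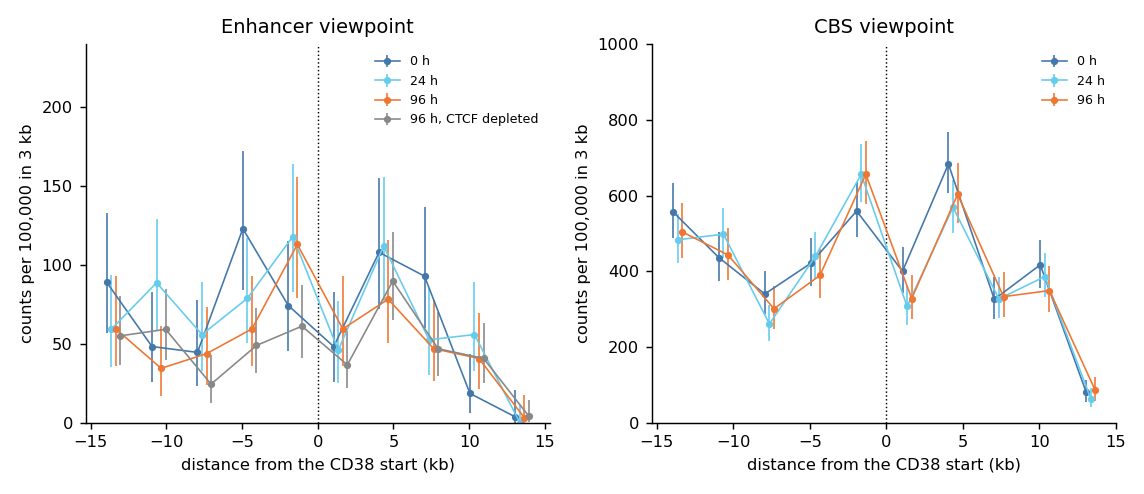
Three-way counts per 100000 of the total in windows of 3 kb (vertical axis) by distance from the CD38 start (horizontal axis, kb, start at the dotted line), from the enhancer viewpoint (left, 4 libraries) and the CBS viewpoint (right, 3 libraries). Points carry 95% counting intervals and are shifted sideways for display. From the enhancer, the window just before the start held 74.3 at 0 h and 118 at 24 h, with intervals that overlapped, and from the CBS it held 559 and 656.

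Corrected for its number of fragments, the window at the CD38 start stood above its neighbours in all 4 enhancer libraries, a difference that was not tested. Per NlaIII fragment, the 12 kb window at the start held 5.98, 6.02, 5.26 and 4.01 counts per 100000, while the 6 neighbouring windows within 36 kb held 3.41 to 4.81 at 0 h, 3.56 to 5.35 at 24 h and 1.76 to 3.5 at 96 h, and 2.76 to 3.6 after depletion. In each library the window at the start was the highest of the 7 per fragment. In raw counts at 24 h, the window centred 24 kb before the start held 109 against 108. The excess at 0 h was not confined to the start. Per fragment, the 3 kb just before the start held 4.13 per 100000, those from 6 to 3 kb before it 9.43, and those from 6 to 9 kb past it 10.3. When E-P-X counts were set against the counts of the flanks, from 6 to 30 kb on each side, the share in the window was 29.0% at 0 h, 26.1% at 24 h and 31.2% at 96 h, against 25.8% after depletion. The changes were -0.21 [-0.62, 0.21] at 24 h (exact test, adjusted p = 0.381), where 66.7% of loci were called, and 0.16 [-0.27, 0.58] at 96 h (exact test, adjusted p = 0.492), where 82.4% were called. In windows of 7.5 kb the ratio at 96 h was 0.76 [0.18, 1.37] and was called (exact test, adjusted p = 0.0124). The flank-based share at CD38 had the 2nd highest and the highest change of the 15 B cell loci at these times, of which 13 fell at each.

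The third fragment of the enhancer to CD38 contacts lay within 100 kb of the enhancer in 29.5% [20.6, 39.7] of counts at 0 h, 27.8% [19.6, 37.2] at 24 h and 30.3% [21.5, 40.4] at 96 h, against 25.9% [18.2, 34.8] after depletion. It lay within 100 kb of the CD38 start in 22.1% [14.2, 31.8], 24.1% [16.4, 33.3], 26.3% [17.9, 36.1] and 37.9% [29.1, 47.4]. The share near CD38 was the highest in the depleted library. Its interval overlapped those of the 3 other libraries, which is not a test, and the difference was not tested. The complete set of enhancer, CD38 promoter and CBS (E-P-C) was seen in 1, 3, 3 and 1 counts and from the CBS viewpoint (C-E-P) in 2, 9 and 0 counts in the 0 h, 24 h and 96 h libraries. These fell below the 20 counts needed for a test. For the 0 at 96 h a floor of 3 counts was set, or 0.008% of the total, which is not an exact interval.

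Contacts of the enhancer with the CBS window (E-C-X) rose at 24 h and were not called at 96 h. The window held 65 counts at 0 h, 110 at 24 h and 54 at 96 h, and 75 after depletion, or 0.241% [0.186, 0.308], 0.362% [0.297, 0.436], 0.169% [0.127, 0.221] and 0.153% [0.120, 0.192]. The 24 h library was high and the 96 h and depleted libraries low. The rise at 24 h was 0.58 [0.13, 1.05] and was called (exact test, adjusted p = 0.0187), in a comparison that called 56.9% of loci, but it was not called under 4 alternatives, and was 0.16 in windows of 30 kb. At 96 h the ratio to 0 h was -0.51 [-1.06, 0.028] (exact test, adjusted p = 0.0739), where 70.6% were called, and in windows of 30 kb, with exclusion of 20 kb and with normalisation to the whole chromosome it was called, with -0.56, -0.79 and -0.62. At 96 h, 7 of the 15 B cell loci had risen and 3 had fallen.

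The same pair was read from the other side in the CBS libraries (C-E-X). The enhancer window held 82, 111 and 99 counts in the 0 h, 24 h and 96 h libraries, or 0.195% [0.155, 0.242], 0.244% [0.2, 0.293] and 0.264% [0.215, 0.321]. The ratios were 0.32 [-0.10, 0.75] at 24 h (exact test, adjusted p = 0.215), where 45.1% of loci were called, and 0.44 at 96 h, with an upper bound of 0.88 (p = 0.0444 by the exact test, adjusted p = 0.064), where 62.7% were called. Neither was called, and at 96 h the enhancer libraries gave a lower and the CBS libraries a higher ratio for the same pair of elements.

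The promoters between and around the elements show where CD38 stood. Levels are given per NlaIII fragment of the window, since windows differ in their number of fragments. From the enhancer, C1QTNF7 had the highest level at 0 h, 28.4 counts per 100000 of the total per fragment, and CC2D2A had 13.5. BST1, which is nearer to the enhancer than CD38, had 4.47, 6.27, 3.65 and 2.95 in the 4 libraries, where CD38 had 5.98, 6.02, 5.26 and 4.01. CD38 was thus above its paralog in all libraries but that of 24 h, and the difference between the genes was not tested. The 10 kb bin with the CD38 start ranked 52nd, 47th, 39th and 58th of 198 bins by count in the 4 libraries. These ranks were not adjusted for distance from the enhancer, so they do not compare CD38 with bins at a like distance.

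At 24 h, 11 promoters near the viewpoint were measured, and 1 rose and 1 fell, where 35.1% of all 989 promoters near the enhancers of the 51 loci were called. FBXL5 rose from 80 to 153 counts, with 0.76 [0.36, 1.17] (exact test, adjusted p = 0.000634), and FGFBP1 fell from 104 to 49, with -1.26 [-1.79, -0.76] (exact test, adjusted p = 2.96e-06). BST1 had 0.49 [0.027, 0.96] and was not called (exact test, adjusted p = 0.0891), although it was in windows of 30 kb, and FBXL5 was not in windows of 7.5 kb. At 96 h none rose and 3 fell, where 44.2% of 973 promoters were called. FGFBP1 had 65 counts and a ratio to 0 h of -0.92 [-1.40, -0.47], CPEB2 -0.71 [-1.24, -0.20] and FAM200B -0.51 [-0.90, -0.12], and the last 2 were not called in windows of 7.5 kb, with -0.63 and -0.29. FBXL5 had 72 counts, or 0.226% of the total against 0.297% at 0 h, with -0.40 [-0.88, 0.078], and was not called. The median over the 11 promoters was 0.008 at 24 h and -0.32 at 96 h, beside 0.09 and -0.08 over all promoters.

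**Figure D3:**
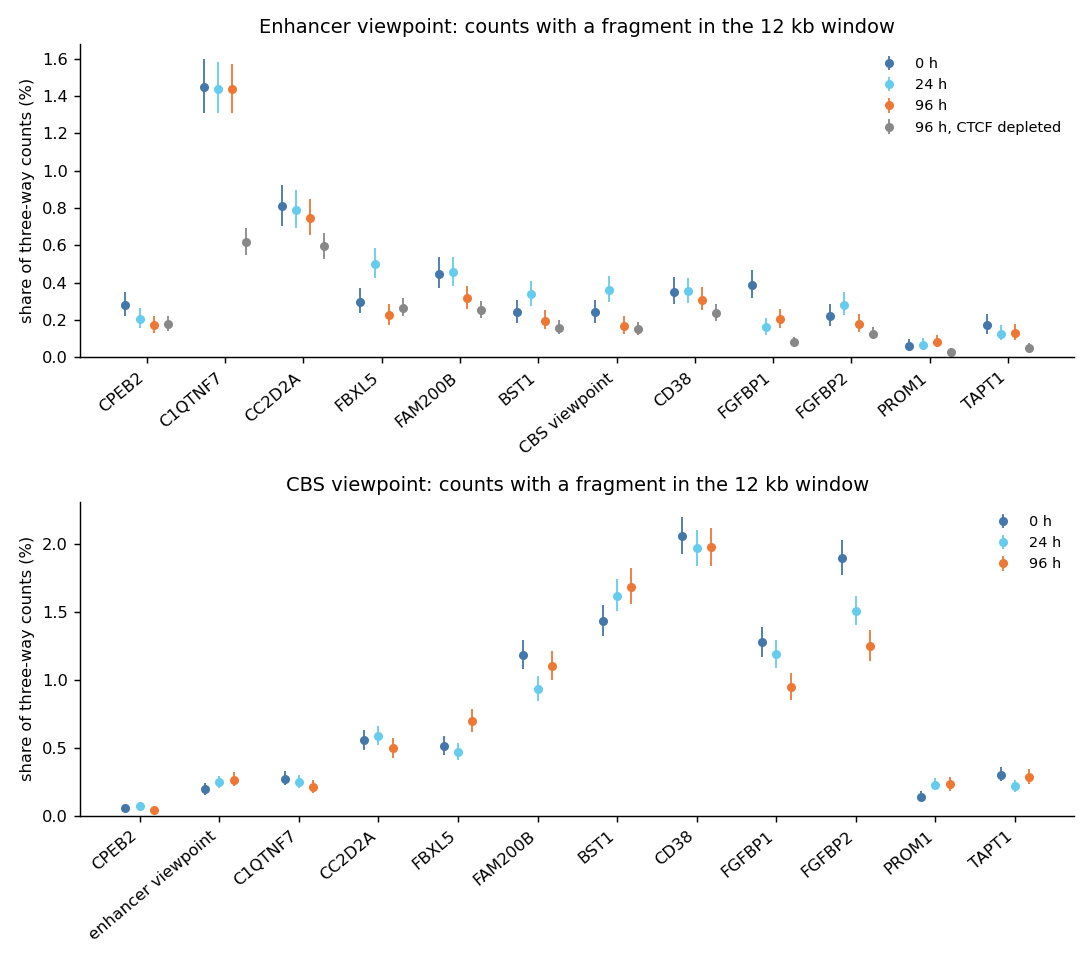
Share of three-way counts (vertical axis, percent) with a distant reporter in the 12 kb window at each protein-coding start or viewpoint near CD38 (horizontal axis, in the order along chromosome 4), from the enhancer viewpoint (top) and the CBS viewpoint (bottom). Points are pooled libraries with 95% counting intervals. CD38 held 0.237% to 0.355% from the enhancer and 1.97% to 2.06% from the CBS.

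Across the locus, the share of the enhancer's contacts that lay beyond the CBS fell at 24 h and 96 h. Of the distant reporters, 52.9% lay on the CD38 side of the enhancer at 0 h, 53.1% at 24 h and 47.6% at 96 h. Among the reporters on that side, the share beyond the CBS, where CD38 lies, was 38.1% at 0 h, 34.1% at 24 h and 30.1% at 96 h. This crossing fell by 0.25 [-0.35, -0.15] at 24 h (Fisher's exact test, adjusted p = 3.08e-06) and by 0.52 [-0.62, -0.41] at 96 h (exact test, adjusted p = 1.98e-21), where 76.5% and 88.2% of loci were called. CD38 had the lowest value of the 15 B cell loci at both times, of which 12 rose at 24 h and 9 at 96 h. Of the 36 iMac loci, 18 fell and 8 rose at 24 h, and 34 fell and 0 rose at 96 h. The loci are not alike in this measure, because the stretch beyond the CBS holds the promoter at CD38 only. The share of distant counts in the total was 22.0% at 0 h, 22.9% at 24 h and 22.0% at 96 h, with ratios of 0.08 [0.019, 0.13] (exact test, adjusted p = 0.0138; 66.7% of loci called) and -0.001 [-0.06, 0.06] (exact test, adjusted p = 0.984; 80.4% called). Counts with both reporters on the CD38 side made up 35.3% of distant counts at 0 h and 29.5% at 96 h, and those with both on the other side 29.6% and 34.3%.

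Bins of 10 kb located these changes. At 24 h, 9 of 189 bins rose (4.76%) and 5 fell (2.65%), a split of 64.3% risen that became 53.3% with normalisation to distant counts. The bins of largest rise were centred at -515 kb and -525 kb, upstream of the enhancer and over 100 kb from the nearest protein-coding start, that of CPEB2, which encodes an RNA-binding protein of cytoplasmic polyadenylation. They went from 18 to 65 and from 29 to 84 counts, with 1.65 and 1.34. A bin 295 kb downstream, 6.52 kb from the BST1 start, rose from 44 to 105 counts, with 1.07 [0.56, 1.62]. The bin with the FGFBP1 start fell from 84 to 39, with -1.28, and a bin in the body of CD38, 48.2 kb past its start, fell from 56 to 30, with -1.07. With each fragment pair counted once, the bins near BST1 and in CD38 were not called, with 0.71 and -0.89.

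At 96 h, 12 of 191 bins rose (6.28%) and 15 fell (7.85%), with 44.4% of called bins risen and 22.7% after normalisation to the whole chromosome. Upstream of the enhancer, 9 of the 19 bins between 10 kb and 200 kb rose and none fell, with a median of 0.33. Normalised to the whole chromosome 4 of them rose, as did 4 of 18 with exclusion of 20 kb. The bins at -155 kb and -165 kb went from 202 to 345 and from 186 to 320 counts, with 0.53 [0.28, 0.79] and 0.54 [0.28, 0.81]. On the CD38 side, 10 of the 54 bins beyond 400 kb fell and none rose, and 4 of 51 fell with each fragment pair counted once. Of the 10 bins, 3 overlapped CD38, 1 in the gene and centred 38.2 kb past its start, with 36 and 16 counts and a ratio of -1.39 [-2.37, -0.53], and 1 over its end, centred 78.2 kb past the start, with 58 and 27 counts and -1.34 [-2.07, -0.67]. The third, chosen after its values were seen, was centred 58.2 kb past the start and went from 54 to 33 counts, with -0.95 [-1.63, -0.31]. The first and the third were not called with exclusion of 20 kb (-1.13 and -0.89) or with each fragment pair counted once (-1.27 and -0.61). The other bins over the gene, beyond the bin with its start, were not called. In order along the gene they went from 59 to 53, 30 to 34, 62 to 54, 56 to 44 and 17 to 7 counts. The total was larger at 96 h than at 0 h. The bin with the CD38 start held 66, 75 and 77 counts in the 0 h, 24 h and 96 h libraries, and its ratio to 0 h was -0.025 [-0.52, 0.47] at 96 h. Over the whole gene body CD38 had 1.17%, 1.13% and 0.783% of the total at these times. The 3 called bins thus fell at 96 h, and the bin with the CD38 start and the other bins over the gene were not called. The difference between called and uncalled bins was not tested.

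**Figure D4:**
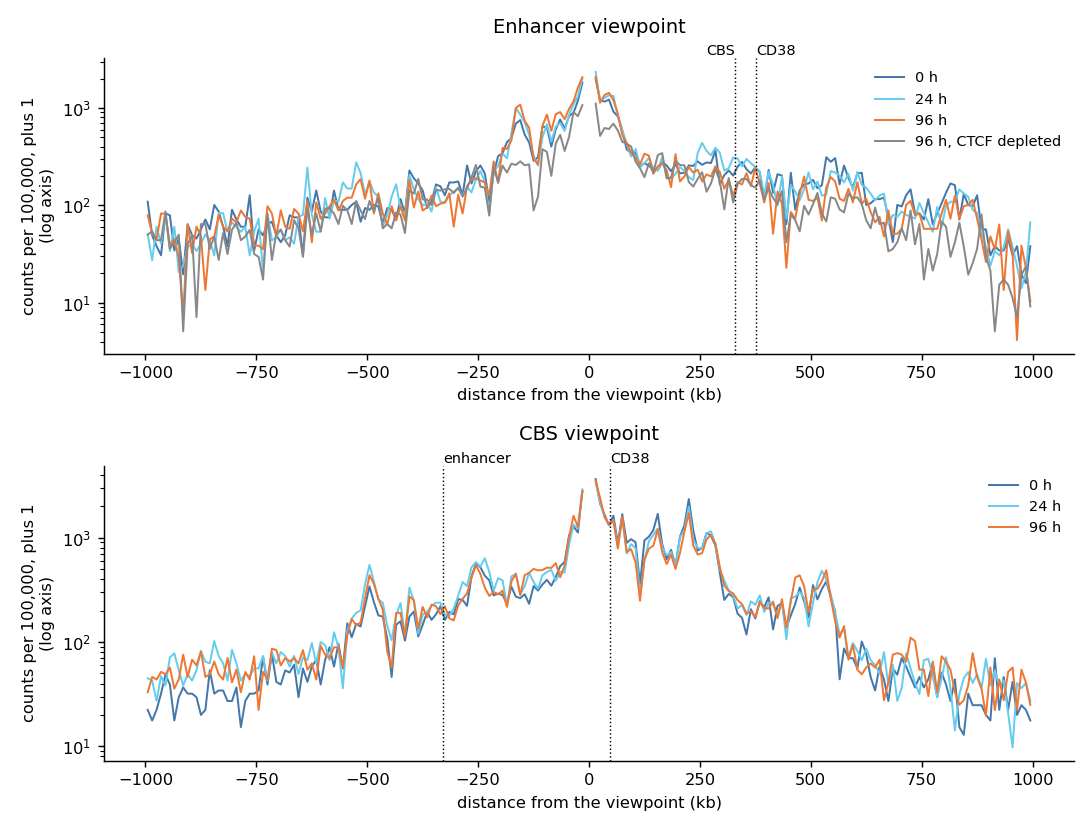
Three-way counts per 100000 of the total, plus 1 (vertical axis, log scale), in bins of 10 kb by distance from the viewpoint (horizontal axis, kb) for the enhancer (top) and CBS (bottom) viewpoint libraries, with dotted lines at the other element and at the CD38 start. The bins at -155 kb and -165 kb from the enhancer held 345 and 320 counts at 96 h and 138 and 127 in the depleted library, and the bin with the CD38 start ranked 9th or 10th of 198 from the CBS.

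The second question was how the locus stood at 96 h when CTCF was depleted. Of the total, 14.6% [14.3, 14.9] of counts were distant in the depleted library against 22.0% [21.6, 22.5] at 96 h, a change of -0.72 [-0.77, -0.67] (Fisher's exact test, adjusted p = 1.77e-157), and this share fell at 100% of the 51 loci. Every share of the total has to be read beside it, because normalisation to distant counts raises the median of all bins from -0.37 to 0.23. The CD38 promoter had 116 counts against 99, or 0.237% against 0.310% of the total, a ratio of -0.39 [-0.79, 0.011] that did not pass (exact test, adjusted p = 0.0539) where 92.2% of loci were called. Of the distant counts it held 1.62% against 1.41%, which turns the ratio to 0.20 [-0.20, 0.61]. With each fragment pair counted once it was 0.35, and with exclusion of 20 kb it was called, with -0.59. The ratio of CD38 was close to the median of all bins under both totals.

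CD38 had the 6th highest E-P-X ratio of the 51 loci and the 5th of the 15 B cell loci, of which 12 fell. EBF1 at the upper end of that order, with -0.11, and BCL11A, with -0.20, were not called either, and CCR1 at the lower end had -2.30. Against its flanks, CD38 had -0.38 [-0.78, 0.019] (exact test, adjusted p = 0.0866), where 60.8% of loci were called. The 10 kb bin with the CD38 start, with 77 counts at 96 h and 74 in the depleted library, fell with -0.68 [-1.16, -0.20] (exact test, adjusted p = 0.0186), but its ratio was -0.087 with normalisation to distant counts (exact test, adjusted p = 0.863) and 0.19 with each fragment pair counted once (exact test, adjusted p = 0.815). The bin 38.2 kb into the gene rose from 16 to 58, with 1.21 [0.42, 2.14], a call lost with exclusion of 20 kb (1.03). Its share of the total after depletion, 0.118%, was above the 0.0501% of the 96 h library but not above the 0.134% of the 0 h library. The low 96 h count entered both this rise and the fall from 0 h, so these calls are not independent. The contact with the CBS (E-C-X) had 75 counts against 54 and a ratio of -0.15 [-0.67, 0.39] (exact test, adjusted p = 0.59), where 94.1% of loci were called, the 2nd highest of 51, and it became 0.45 with normalisation to distant counts. Boundary crossing was 31.6% against 30.1%, with 0.10 [-0.001, 0.21] (exact test, adjusted p = 0.0552), where 96.1% were called. It was called in windows of 7.5 kb (0.11), with exclusion of 5 kb (0.16) and with each fragment pair counted once (0.15), and not in windows of 30 kb (0.099), with exclusion of 20 kb (0.038) or with counts divided by 3 (0.10). At 13 of the 15 B cell loci it rose, although the stretch beyond the CBS holds the promoter at CD38 only.

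Relative to the total, bins upstream and close to the enhancer fell in the depleted library. In it 3 of 190 bins rose (1.58%) and 50 fell (26.3%). With normalisation to distant counts 32 rose and 21 fell, which moved the risen share of calls from 5.66% to 60.4%. All 19 bins between 10 kb and 200 kb upstream of the enhancer fell, with a median of -1.01, as did 7 of the 19 at this distance downstream and 16 of the 54 beyond 400 kb downstream. Between 200 kb and 400 kb downstream, the stretch that holds FBXL5, BST1, the CBS and the CD38 start, 1 of 20 bins fell, the one with the CD38 start, and the median was -0.14. Normalised to distant counts, 12 of the 19 upstream bins fell, with a median of -0.43, and 4, 0 and 4 bins in these downstream stretches in order of distance, where the medians became 0.35, 0.45 and 0.079. With each fragment pair counted once, 15 of the upstream bins fell, and 5, 0 and 2 of the downstream ones. The bin at -165 kb fell from 320 to 127 counts, with -1.96 [-2.27, -1.66], and that at -155 kb from 345 to 138, with -1.95 [-2.25, -1.66]. These were the bins that had risen between 0 h and 96 h, and in the depleted library they held 0.259% and 0.282% of the total against 0.691% and 0.750% at 0 h. They are centred 191 kb and 181 kb from the C1QTNF7 start and overlap no protein-coding gene.

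Of the 11 promoters measured in the depleted library, 5 fell and none rose, where 45.3% of 946 promoters were called. C1QTNF7, in the enhancer's own neighbourhood, went from 459 to 303 counts, with -1.23 [-1.44, -1.02] (exact test, adjusted p = 5.61e-30). FGFBP1 had -1.31 [-1.93, -0.73], TAPT1 -1.30 [-2.08, -0.57] and PROM1 -1.45 [-2.48, -0.51], all on the far side of CD38. With normalisation to distant counts TAPT1 and PROM1 lost the call, with -0.71 and -0.86, and with each fragment pair counted once FGFBP1 did too, with -0.66. CC2D2A had -0.33 [-0.58, -0.078] and turned to 0.27 with normalisation to distant counts. FBXL5, with 0.24, BST1, with -0.31, and CD38 were not called, and with normalisation to distant counts FBXL5 was, with 0.84. The median of the 11 promoters was -0.39, beside -0.18 over all promoters.

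**Figure D5:**
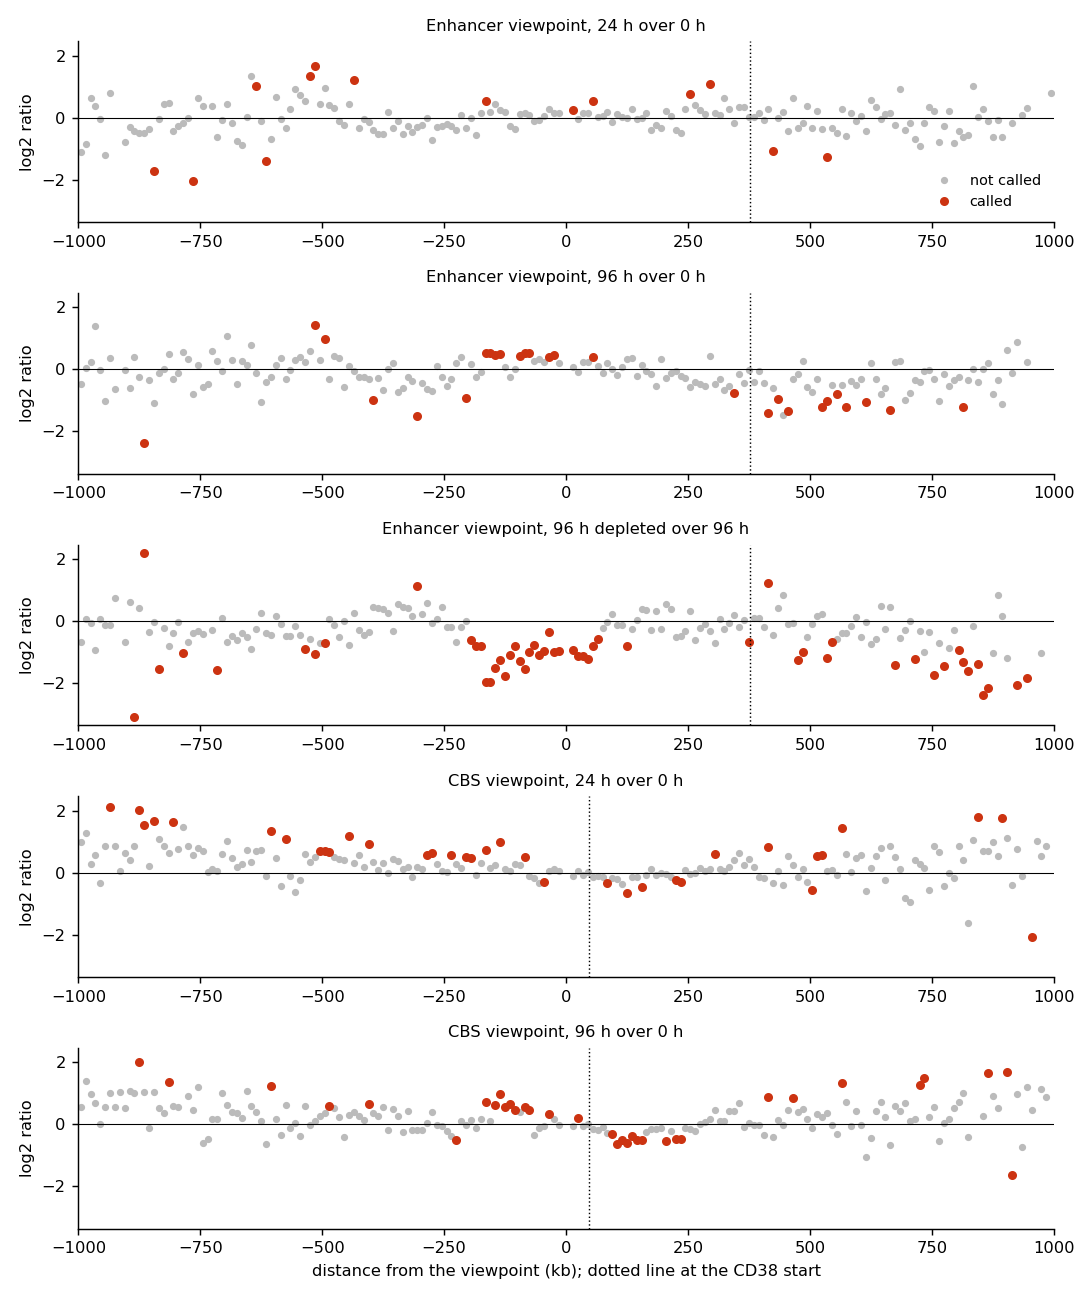
Change of each 10 kb bin (vertical axis, log2 ratio of pooled libraries) by distance from the viewpoint (horizontal axis, kb) in 5 comparisons, where red points are called bins, grey points bins that were not called and the dotted line is the CD38 start. In the depleted library the 19 bins within 200 kb upstream of the enhancer all fell, with a median of -1.01, which became 12 of the 19 and -0.43 with normalisation to distant counts, and 1 of the 20 bins from 200 kb to 400 kb downstream did.

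The third question was how the CBS inside BST1 contacted CD38 (C-P-X). CD38 had the highest count, and the highest level per fragment, of the 11 promoters measured from the CBS in each library, with 866 counts at 0 h, 896 at 24 h and 741 at 96 h, or 2.06% [1.93, 2.20], 1.97% [1.84, 2.10] and 1.98% [1.84, 2.12]. The intervals overlapped at all times. The ratios were -0.07 [-0.21, 0.07] at 24 h (exact test, adjusted p = 0.405) and -0.06 [-0.21, 0.08] at 96 h (exact test, adjusted p = 0.455), where 54.3% and 76.1% of the 46 loci measured were called, and the bounds lie within 0.21 of no change. With normalisation to the whole chromosome the ratio at 96 h was called, with -0.26, and 69.1% of the chromosome's counts lay within 1 Mb at 0 h and 60.5% at 96 h. Of the 14 B cell loci measured 11 rose at 96 h, and CD38 was not among them. The CD38 window held 34.9, 33.3 and 33.5 counts per 100000 per fragment, above the windows 12 kb to either side but below those 24 kb and 36 kb nearer to the CBS and that 24 kb further on, which held 36.9, 34.0 and 35.5. In 51.9%, 47.4% and 48.3% of its counts the third fragment lay within 100 kb of the CBS. The CD38 start, 48.01 kb from the CBS, lies in this stretch too. The share thus does not tell fragments near the CBS from those near CD38.

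Around CD38 the contacts of the CBS did change. Of 196 bins, 27 rose (13.8%) and 8 fell (4.08%) at 24 h, and of 192 bins 22 rose (11.5%) and 12 fell (6.25%) at 96 h. The risen share of calls was 77.1% at 24 h and 66.7% with normalisation to distant counts, and it was 64.7% at 96 h and 25% with normalisation to the whole chromosome. At 96 h, 9 of the 19 bins within 200 kb on the enhancer side rose and none fell, while 7 of the 19 on the CD38 side fell and 1 rose. Normalised to the whole chromosome, 3 rose on the enhancer side and 16 fell on the CD38 side. The bin at -135 kb, toward the enhancer and in CC2D2A, rose from 97 to 172 counts, with 0.99 [0.63, 1.37]. Bins 105 kb, 115 kb and 125 kb beyond the CBS, the last of which covers the end of CD38 and the others its body, went from 378 to 216, from 149 to 93 and from 395 to 231 counts, with -0.65 [-0.90, -0.40], -0.52 [-0.91, -0.14] and -0.61 [-0.86, -0.38]. A bin 95 kb beyond the CBS, also in CD38 and chosen after its values were seen, went from 406 to 290 counts, with -0.32 [-0.55, -0.10]. This bin and that at 115 kb were not called with exclusion of 20 kb, with -0.28 and -0.41. The bin at 125 kb had also fallen at 24 h, to 274 counts, with -0.65. The bin with the CD38 start held 550, 604 and 494 counts, with 0.018 [-0.15, 0.19] at 24 h and 0.009 [-0.17, 0.19] at 96 h. Over the whole gene body CD38 had 7.23%, 6.27% and 6.05% of the total.

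Among the other promoters seen from the CBS, 1 rose and 2 fell at 24 h, where 22.1% of 936 promoters were called, and 3 rose and 2 fell at 96 h, where 31.3% of 924 were called. FGFBP2 fell at both times, from 797 counts to 686 and 468, with -0.34 [-0.49, -0.19] and -0.61 [-0.78, -0.45]. FGFBP1 fell at 96 h, from 537 to 356, with -0.43 [-0.63, -0.24]. PROM1 rose at both times, from 59 counts to 103 and 86, with 0.68 [0.21, 1.18] and 0.71 [0.21, 1.21], and was not called in windows of 7.5 kb, with 0.43 and 0.66. FAM200B fell at 24 h, with -0.34 [-0.53, -0.15]. On the enhancer side FBXL5 rose at 96 h, from 216 to 260, with 0.43 [0.17, 0.70], and so did BST1, from 600 to 631, with 0.24 [0.08, 0.40], but with normalisation to the whole chromosome both lost the call, with 0.24 and 0.045. Per fragment BST1 stood at 26.5, 30.1 and 31.2 per 100000 in the 0 h, 24 h and 96 h libraries, below CD38 at each time.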

How the data were processed

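Tri-C libraries of BLaER1 cells were read as the 7 pair tables of CD38 among 371. The authors digested chromatin with NlaIII, captured viewpoints, processed reads against hg38 with CapCruncher 0.2.3, merged 3 biological replicates and extracted reads with at least 2 reporters. The deposited unit is a raw count of each reporter pair seen with the viewpoint, and every pair of a read was counted. Totals within 1 Mb were 26921 to 48997 for enhancer libraries, so windows of about 100 counts have wide intervals. Viewpoints were placed from the gap each table leaves around them, and genes came from the GENCODE annotation of hg38. Element counts were compared by an exact binomial test conditional on the total, and boundary crossing and distant share by Fisher's exact test, all two-sided, over loci, promoters or bins with at least 20 counts, with Benjamini-Hochberg adjustment at 0.05. Intervals are exact (Clopper-Pearson), and for Fisher's tests normal approximations on the log scale with a pseudocount of 0.5, which all ratios carry. IFNGR2 and TASL were left out. CD38, its neighbours with a called change, BST1, FBXL5, CC2D2A, PROM1 and C1QTNF7, the 5 called bins of largest rise and fall with at least 50 counts, the 2 B cell loci nearest in distance and the ends of ranks could be named. Some of these are not reported here. The members and lists were chosen with earlier results of these data known. Alternatives were other windows, exclusions, bins and totals, pairs counted once, and counts divided by 3. Those for promoters and named bins were added after seeing the data. Python 3.11.15, NumPy 2.4.6, pandas 2.3.3, SciPy 1.17.1 and matplotlib 3.10.9 were used. The exact binomial test and its adjustment over loci were tried on simulated window counts. Those counts were independent, unlike the counts here, and Fisher's exact test was not tried.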

Additional observations from a re-analysis of the deposited data

How the results depend on the processing

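No paired analysis was possible because the tables pool the replicates, and for the same reason no replicate could be left out. Counts near 100 at the CD38 promoter leave its direction open to the settings, and the cause was not tested. In windows of 7.5 kb the E-P-X ratios were 0.59 at 24 h and 0.35 at 96 h, those over flanks 0.50 and 0.76, depleted E-C-X 0.077, depleted boundary crossing 0.11 and C-P-X at 96 h 0.003. The depleted boundary crossing was called there, with exclusion of 5 kb and with pairs counted once. In windows of 30 kb the ratio over flanks was -0.003 at 96 h and E-C-X was 0.16 at 24 h and -0.56 at 96 h. Exclusion of 20 kb gave -0.59 for depleted E-P-X, -0.57 over flanks, 0.41 and -0.79 for E-C-X at 24 h and 96 h, -0.004 and -0.069 for the distant share and 0.001 for C-P-X at 96 h. Exclusion of 5 kb gave 0.16 for depleted boundary crossing and 0.022 for C-P-X at 24 h. Normalisation to distant counts gave -0.052 and 0.20 for E-P-X at 24 h and after depletion and 0.45 for depleted E-C-X. The whole chromosome as total gave -0.62 for E-C-X, -0.12 for the distant share and -0.26 for C-P-X, all at 96 h. With each fragment pair counted once, E-P-X was -0.11 at 24 h and 0.35 after depletion, the ratio over flanks -0.12 at 96 h and 0.019 after depletion, E-C-X 0.48 at 24 h and 0.23 after depletion, depleted boundary crossing 0.15, and the distant share 0.058 and 0.088 at 24 h and 96 h. With counts divided by 3, E-P-X was -0.009, E-C-X 0.56 and the distant share 0.075 at 24 h.

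Called bins numbered 4, 17, 34 and 23 with pairs counted once (enhancer 24 h, 96 h and depleted, CBS 24 h), 32 in bins of 20 kb in the depleted library, and 0, 0, 20, 3 and 1 with counts divided by 3. Called promoters of all loci, by viewpoint and comparison in that order, were 96, 192, 212, 28 and 72 with counts divided by 3, and from the CBS 132, 367 and 134 at 24 h in windows of 7.5 kb, of 30 kb and with pairs counted once, and 441 at 96 h in windows of 30 kb. The depleted bin with the CD38 start was 0.19 with pairs counted once. Promoters that were mostly not called changed sign. From the enhancer these were, at 24 h, C1QTNF7 (0.13 in 7.5 kb, 0.17 in 30 kb), CC2D2A (0.14 in 30 kb, 0.013 with pairs once), FGFBP2 (-0.16 in 30 kb), FAM200B and PROM1 (-0.036 and -0.007 with distant counts), and at 96 h C1QTNF7 (0.13 in 30 kb, 0.087 with pairs once), CC2D2A (0.048) and PROM1 (-0.40) in 30 kb. In the depleted library they were CPEB2 (-0.45) and BST1 (0.19) in 7.5 kb, FBXL5 (-0.20 in 30 kb), CC2D2A (0.27), FAM200B (0.28), BST1 (0.28) and FGFBP2 (0.092) with distant counts, and CC2D2A (0.018) and FAM200B (0.001) with pairs once. From the CBS they were C1QTNF7 (0.19 and 0.087) and FBXL5 (0.002 and 0.045) in 7.5 and 30 kb and CC2D2A (-0.10 with pairs once) at 24 h, and TAPT1 (0.27 in 7.5 kb, 0.14 in 30 kb, 0.008 with pairs once) and FAM200B (0.049 in 30 kb) at 96 h.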
